A study of Homo sapiens with 8 samples.

Results

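PDZK1, DHRS2, PIP, OLFM4 and ADA2 are 5 genes of 17771 named on the array, measured by 8 of its 41000 probes. They were picked for large rises in CAL-27 cells treated with a compound that the labels call Go over cells treated with enzastaurin, and their probes were found by gene name (ADA2 also under its older name CECR1). The difference between Go and enzastaurin therefore chose them and is given here as a description, with no test. They had been grouped as secretory epithelial genes, a name that covers them in part: PIP, OLFM4 and ADA2 encode secreted proteins, whereas PDZK1 encodes a scaffold beneath the cell membrane and DHRS2 an intracellular enzyme. "Higher with Go" holds against enzastaurin. Against untreated cells ADA2 was lower with Go.

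CAL-27 is a human line from a squamous carcinoma of the tongue. The cells were serum-starved for 24 h and then kept for 24 h untreated (control, 3 arrays), with enzastaurin at 10 µM (3 arrays) or with Go at a dose that the labels do not state (2 arrays). All groups thus share the serum starvation and a single cell line. The labels do not say whether the arrays of a group came from separate cultures, and every p-value is limited to the spread among these arrays, which may be technical.

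Protein kinase C is a family of serine/threonine kinases, many of them switched on by diacylglycerol, alone or with calcium. In squamous cells it acts on growth and on the programme of differentiation. Enzastaurin is an ATP-competitive inhibitor of the kinase, and the series title calls both compounds PCK inhibitors, in that spelling. PDZK1, also called NHERF3, holds transporters and the scavenger receptor SR-BI in place through its PDZ domains. DHRS2 belongs to the short-chain dehydrogenases/reductases, some of which reduce carbonyl compounds with NADPH. PIP, the prolactin-induced protein or GCDFP-15, is a secreted glycoprotein of apocrine, salivary and lacrimal glands that androgen and prolactin induce. OLFM4 is a secreted olfactomedin-domain glycoprotein known from neutrophils and from stem cells of the intestinal crypt. ADA2 is a secreted adenosine deaminase, best known from monocytes and macrophages, and is distinct from the intracellular ADA.

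Promoter sequences were at hand for 4 of the members and are shown because these genes moved in the same direction in the contrast that chose them. Each is the RefSeq window of 300 bases from GRCh38.p14, 250 before the annotated start and 50 after it, printed on the strand of the gene. They lie at chr1:145707351-145707650 (PDZK1, minus strand, the first listed start), chr14:23629865-23630164 (DHRS2, plus strand), chr7:143131827-143132126 (PIP, plus strand) and chr13:53028563-53028862 (OLFM4, plus strand). Capitals mark matches to the motifs named after the sequences.
PDZK1: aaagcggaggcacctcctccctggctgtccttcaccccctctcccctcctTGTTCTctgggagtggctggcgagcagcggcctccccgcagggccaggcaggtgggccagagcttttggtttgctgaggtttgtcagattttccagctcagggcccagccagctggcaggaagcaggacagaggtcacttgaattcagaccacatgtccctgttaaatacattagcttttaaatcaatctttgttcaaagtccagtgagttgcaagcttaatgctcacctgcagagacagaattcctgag
DHRS2: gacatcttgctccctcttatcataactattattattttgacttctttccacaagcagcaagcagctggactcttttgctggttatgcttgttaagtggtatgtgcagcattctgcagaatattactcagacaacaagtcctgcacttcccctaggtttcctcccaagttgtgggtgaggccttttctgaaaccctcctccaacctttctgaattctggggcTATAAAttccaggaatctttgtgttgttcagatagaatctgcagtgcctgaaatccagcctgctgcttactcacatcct
PIP: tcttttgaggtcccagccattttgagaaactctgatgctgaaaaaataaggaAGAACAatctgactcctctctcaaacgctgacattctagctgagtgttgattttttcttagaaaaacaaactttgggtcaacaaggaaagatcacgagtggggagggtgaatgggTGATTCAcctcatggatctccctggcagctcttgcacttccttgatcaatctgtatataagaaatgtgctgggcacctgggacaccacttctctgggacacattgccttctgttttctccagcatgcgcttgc
OLFM4: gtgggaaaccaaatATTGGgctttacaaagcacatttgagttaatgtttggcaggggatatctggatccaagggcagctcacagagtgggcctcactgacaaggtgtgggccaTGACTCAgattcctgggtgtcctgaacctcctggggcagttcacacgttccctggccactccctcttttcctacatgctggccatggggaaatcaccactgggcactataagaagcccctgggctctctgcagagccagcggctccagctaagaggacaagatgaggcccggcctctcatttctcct
The motifs searched on both strands were the AP-1 site TGANTCA, the TATA box TATAAA, the CCAAT box CCAAT, the GC box GGGCGG, the steroid receptor half-site AGAACA and the xenobiotic response core GCGTG. No match overlapped another. AP-1 letters stood in PIP (TGATTCA at -83 to -77, counting the start base as 0) and in OLFM4 (TGACTCA at -137 to -131), thus in 2 of 4 windows, against 7.76% of 27305 promoters of the same length. The N admits any middle base, such as the T in PIP, and a stricter form of the site was not counted. The steroid receptor half-site stood in PIP at -198 to -193 and, on the opposite strand, in PDZK1 at -200 to -195, against 14.9% of all promoters. DHRS2 held the TATA box letters TATAAA at -29 to -24 (12% of all promoters) and OLFM4 a reversed CCAAT box (35.7%). Other forms of the TATA box were not searched. The letters tataag in the PIP and OLFM4 windows were thus not counted. The GC box (44.6% of all promoters) and the xenobiotic response core (36.3%) had no match in the 4 windows. The windows were 44% to 54.7% GC with 0 to 4 CG dinucleotides, against medians of 58.3% and 14 over all promoters. A match is a description of letters and not evidence of binding.

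Between 53.4% and 58.5% of the gene spots lay above background on an array, taken as a signal-to-noise score over 3. The mean horizontal spot position was taken to mark the slide, which the labels do not name. It was 10930.1 to 10951 µm on a first slide (the 3 controls with Go 1) and 10897.1 to 10904.5 µm on a second (enzastaurin with Go 2). Control and enzastaurin then share no slide, and the 2 Go arrays alone link the slides. All 15 squamous keratinocyte markers on the array were above background on every array. Of the markers of other cells, 4 of 14 monocyte and leukocyte, 3 of 9 fibroblast and 3 of 7 endothelial genes were above background on no array, among them PTPRC, PDGFRB and PECAM1. Others were above background on all 8, among them CD14, CSF1R and the fibroblast marker THY1, whose authors' intensity ran from 80 to 1682.

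PDZK1 gave authors' intensities of 125, 104 and 145 on the control arrays, 40, 51 and 54 on the enzastaurin arrays and 271 and 254 on the Go arrays. These are background-subtracted brightness values in arbitrary units, not normalised between arrays, and here the groups did not overlap, with Go highest and enzastaurin lowest. The means were 125 ± 20.5 (SD, n = 3) in control, 48.3 ± 7.37 (SD, n = 3) in enzastaurin and 263 ± 12 (SD, n = 2) in Go. After normalisation PDZK1 was 1.56 higher in Go than in enzastaurin on the log2 scale (2.94-fold), the 11th largest difference of 12773 genes. Among the probes that stand for the 5 genes, that of PDZK1 varied least between arrays of a group, with a pooled SD of 0.0713 on the log2 scale against a median of 0.118 over all genes. It was also the dimmest of them, and an offset of 50 added to intensities before the log draws dim values together. On the authors' values the SD was 16.4% of the mean in control, 15.3% in enzastaurin and 4.58% in Go. For PIP these were 7.65%, 11.1% and 17.7%. The authors' means of PDZK1 in Go and enzastaurin had a ratio of 5.43. The control 1 spot had a signal-to-noise score of only 1.58 and did not count as above background, while the other 7 arrays scored 4.67 to 24.5. The reference also lists a transcribed pseudogene, PDZK1P1, with no probe of its own here, and whether the PDZK1 probe separates the 2 transcripts was not tested.

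DHRS2 was read by 2 probes, both of them brightest with Go. The brighter one read 176, 145 and 152 in control, 185, 204 and 154 in enzastaurin and 629 and 527 in Go. The dimmer one read 85, 72 and 104 in control, 132, 138 and 125 in enzastaurin, and 428 on both Go arrays. Go thus stood apart from both other groups on each probe. On the normalised log2 scale Go exceeded enzastaurin by 1.51 (2.84-fold) with the brighter probe and by 1.54 (2.92-fold) with the dimmer one. The Go arrays differed from each other by 0.00466 with the brighter probe and by 0.188 with the dimmer one.

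PIP read 984, 844 and 920 in control, 709, 567 and 651 in enzastaurin and 1896 and 1475 in Go. The 3 groups did not overlap, with means of 916 ± 70.1 (SD, n = 3), 642 ± 71.4 (SD, n = 3) and 1686 ± 298 (SD, n = 2). The normalised difference between Go and enzastaurin was 1.49 (2.82-fold). The enzastaurin 2 spot barely counted as above background, with a score of 3.13, and also had the lowest normalised value, 8.81 against 9.35 and 9.40 on the other enzastaurin arrays. The pooled SD of PIP, 0.256, exceeded that of 91.9% of genes.

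On the normalised scale OLFM4 was the gene for which the Go arrays lay farthest apart of the 5. Its brighter probe read 2681, 2456 and 2911 in control, 1943, 2047 and 1954 in enzastaurin, and 6079 on Go 1 against 3632 on Go 2. Go was above control and control above enzastaurin on every array, but the normalised values of Go 1 and Go 2 lay 0.53 apart on the log2 scale. The second probe was dimmer and read 97, 89 and 85 in control, 56, 75 and 80 in enzastaurin, and 161 and 98 in Go. With it, Go exceeded enzastaurin by 0.61 (1.52-fold), against 1.45 (2.73-fold) with the brighter probe. On the normalised scale the second probe's Go and control arrays overlapped.

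ADA2 differed from the other members in where the untreated cells stood. Its measured probe, designed on the transcript record NM_177405, read 910, 1052 and 792 in control, 169, 128 and 99 in enzastaurin and 572 and 293 in Go. Control was highest and enzastaurin lowest, with no overlap, and the means were 918 ± 130 (SD, n = 3), 132 ± 35.2 (SD, n = 3) and 433 ± 197 (SD, n = 2). The normalised difference between Go and enzastaurin was 1.47 (2.78-fold). The second ADA2 probe, designed on record NM_017424, read 0.5 to 3 and was not above background on any of the 8 arrays. It was the 1 member probe of 8 left out of the test, so that 7 probes and all 5 genes were tested. ADA2 had the largest pooled SD of the members, 0.32, above that of 95.5% of genes.

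**Figure D1:**
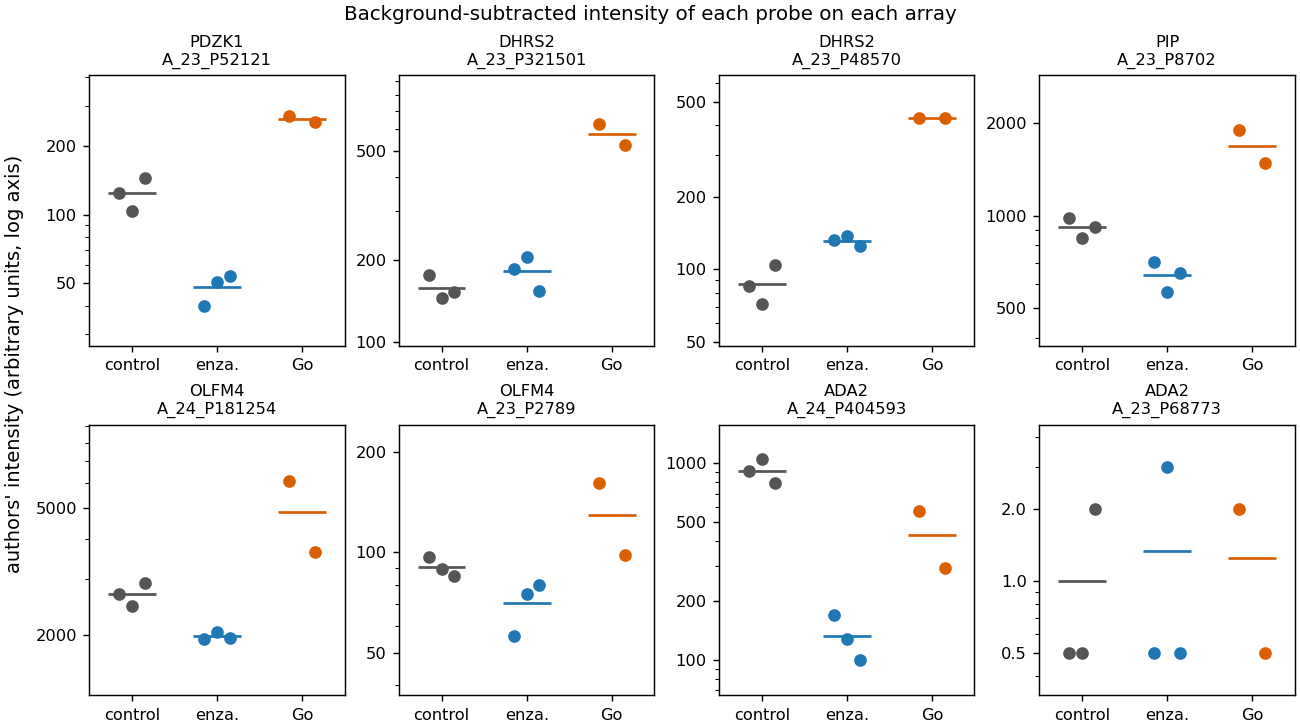
Authors' background-subtracted intensity (arbitrary units, log axis) of each of the 8 member probes on each array, with 3 control, 3 enzastaurin (enza.) and 2 Go arrays; points are arrays and bars are group means. Go is highest for PDZK1, PIP and both probes of DHRS2 and OLFM4, control is highest for the measured ADA2 probe, and the second ADA2 probe stays at 0.5 to 3.

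All 5 members lay in a narrow band of the contrast used to choose them, from 1.45 for OLFM4 to 1.56 for PDZK1 on the log2 scale, at places 11 to 17 of 12773 genes. Every Go array lay above every enzastaurin array for all 5, as it did for 28.7% of all genes, and nothing is read from this. The gene just above them was JDP2 (1.60), those at places 15 and 16 were TNK2 (1.46) and KLK10 (1.46), and SCEL (1.45) followed OLFM4. Within the second slide, Go 2 exceeded the mean of the enzastaurin arrays by 1.64 for PDZK1, 1.51 for DHRS2, 1.38 for PIP, 1.28 for ADA2 and 1.18 for OLFM4. Over 21 alternative settings the difference was 1.48 to 2.31 for PDZK1, 1.42 to 1.82 for DHRS2, 1.31 to 1.60 for PIP, 1.03 to 1.71 for OLFM4 and 1.28 to 1.78 for ADA2; its sign was fixed by the choice of the genes.

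The order of the groups split the members into 3 patterns. For PDZK1, PIP and OLFM4 the order was Go, control, enzastaurin with no array out of place, an order found in 1.21% of all genes. For ADA2 it was control, Go, enzastaurin, found in 11.4% of genes. The choice of the members fixed that Go stood above enzastaurin in these orders, so the shares of unselected genes are given as background and nothing is read from them. For DHRS2, Go stood above control and enzastaurin, while those 2 groups overlapped on the normalised scale of the brighter probe. The direction between them was not settled for DHRS2: enzastaurin minus control was -0.22 with the brighter probe and 0.06 with the dimmer one, and the unnormalised means of the authors put enzastaurin 1.15 and 1.51 times above control.

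**Figure D2:**
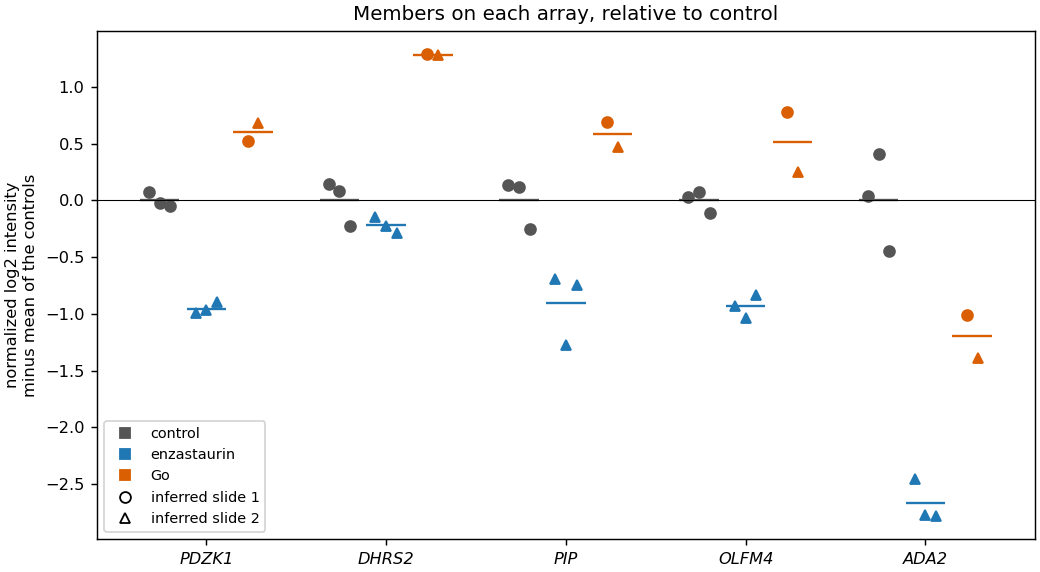
Normalised log2 intensity minus the mean of the controls for the probe that stands for each gene; points are arrays, circles the first and triangles the second inferred slide, and bars group means. PDZK1, PIP and OLFM4 lie above 0 with Go and below 0 with enzastaurin, DHRS2 lies 1.29 above with Go, and ADA2 lies below 0 with both compounds.

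Untreated cells were not used to choose the members, so each compound was tested against control, with the reservation that the Go and enzastaurin arrays themselves had been used and that both comparisons share the controls. Against control, Go (n = 2) was higher for DHRS2 by 1.29 (SE 0.115, limma adjusted p = 0.00213), for PDZK1 by 0.60 (SE 0.085, adjusted p = 0.00525), for OLFM4 by 0.51 (SE 0.149, adjusted p = 0.0318) and for PIP by 0.59 (SE 0.19, adjusted p = 0.0454). With Go, ADA2 fell by 1.20 (log2; SE 0.232; adjusted p = 0.0115), to 0.436 of control. Thus 4 of 5 members were called higher and 1 lower, where 11.6% of all genes were called higher and 20.2% lower (31.9% in all). Every Go array lay above every control array for those 4 members (19.4% of all genes) and below every control array for ADA2 (38%). The median difference of all genes was -0.10. The choice of genes with Go far above enzastaurin favours calls higher with Go and lower with enzastaurin. These counts and p-values of the members are therefore a description and not independent support.

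These calls were unequal in strength. PDZK1 and DHRS2 kept theirs in all 21 alternative settings. The PIP call was lost in 13, and in the limma fits without control 1, 2 or 3 (adjusted p = 0.0691, 0.083 and 0.079), enzastaurin 1 or 3 (0.0576 and 0.0626), Go 1 (0.15) or Go 2 (0.107), within a range of 0.0137 to 0.15 over all settings. The OLFM4 call was lost in 10, among them the fits without control 1, 2 or 3 (0.0672, 0.0712 and 0.0513), enzastaurin 1, 2 or 3 (0.0561, 0.0504 and 0.0503) and Go 1 (0.124), within a range of 0.011 to 0.124. Its second probe differed by 0.20 and did not pass (adjusted p = 0.244 in the fit on probes). The ADA2 call was lost in 3 settings, with the slide as a block (adjusted p = 0.0721), without Go 2 (0.0722) and in a fit of the 2 groups alone (0.0552), within a range of 0.00143 to 0.0722.

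With enzastaurin (n = 3) the members were lower than control (n = 3) or did not pass. Here ADA2 fell by 2.67 (log2; SE 0.208; limma adjusted p = 0.000171), a 6.37-fold difference and the 34th lowest of 12773 genes. PDZK1 decreased by 0.95 (SE 0.076, adjusted p = 0.000188), OLFM4 by 0.93 (SE 0.133, adjusted p = 0.000876) and PIP by 0.91 (SE 0.17, adjusted p = 0.00263). DHRS2 differed by -0.22 with a 95% interval of -0.45 to 0.01 (adjusted p = 0.0965), and passed only in the fit without control 3 (-0.33, adjusted p = 0.00674; range 0.00674 to 0.871 over all settings). So 4 of 5 members were called lower, in a comparison in which 36.9% of all genes were called lower and 55% called in either direction. Every enzastaurin array lay below every control array for the same 4, as for 46.1% of all genes. The choice of the members favours low values with enzastaurin, so these counts and p-values too are a description.

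Both comparisons were also run with the inferred slide in the fit. With the inferred slide as a block, which makes Go against control the difference of Go 1 from the controls, PDZK1 differed by 0.52 (limma adjusted p = 0.0214), DHRS2 by 1.29 (0.00337), OLFM4 by 0.78 (0.011), PIP by 0.70 (0.107) and ADA2 by -1.01 (0.0721). For enzastaurin against control the block rests on the difference between Go 1 and Go 2 alone. There PDZK1 differed by -1.11 (adjusted p = 0.00736) and ADA2 by -2.29 (0.0271), while PIP at -0.69 (0.229), OLFM4 at -0.40 (0.165) and DHRS2 at -0.22 (0.517) did not pass. All genes called numbered 841 for Go and 546 for enzastaurin in the block, against 4071 and 7024 without it. For Go against control the block gives Go 2 no weight, much as the fit without Go 2. The losses of the PIP and ADA2 calls in those settings are therefore not separate. Because the block rests on fewer arrays, the lower counts do not show an effect of slide.

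**Figure D3:**
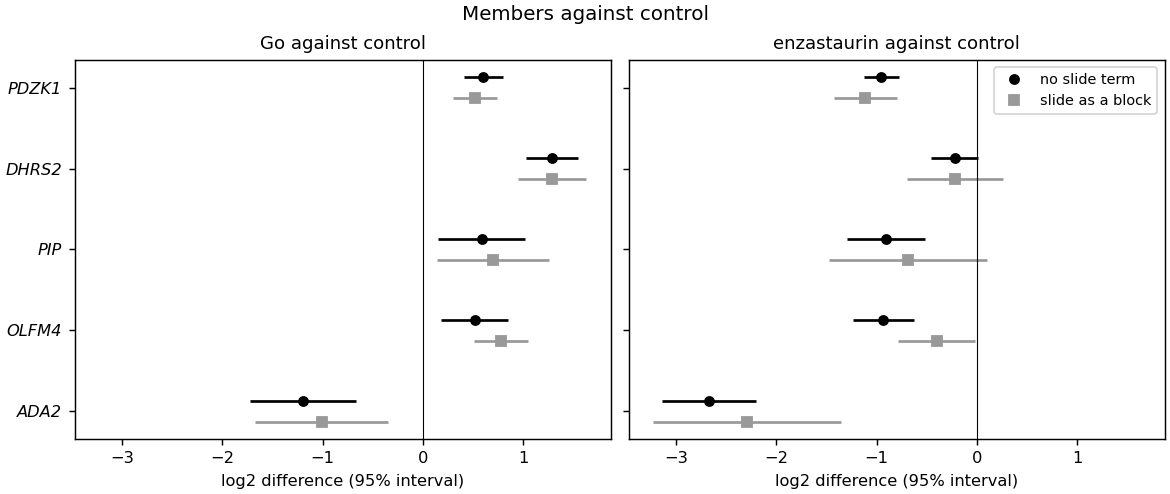
Log2 difference from control of each member with Go (left) and enzastaurin (right); points are estimates and lines 95% intervals from limma, black without a slide term and grey with the inferred slide as a block. ADA2 lies left of 0 in both panels, and PDZK1 lies right of 0 with Go and left of 0 with enzastaurin in either fit.

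Of 12773 genes, 31 (0.243%) were called higher with Go and lower with enzastaurin against the same controls, and PDZK1, PIP and OLFM4 were 3 of them. Genes chosen for a wide gap between Go and enzastaurin are more apt to have both calls, so their number is a description. With the slide as a block 1 gene had both calls, PDZK1. Among the other 28, JDP2 had the widest gap, at 0.48 with Go and -1.12 with enzastaurin. It is named here after its values were seen, as are INHBB (0.60 and -0.70) and the squamous keratin KRT4 (0.44 and -0.67). Called lower with both compounds, as ADA2 was, were 15.9% of all genes.

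The genes most like each member were taken by the root mean square difference between mean-centred normalised log2 values over the 8 arrays, a description with no test. PDZK1 was closest to JDP2 (0.108), the autophagy kinase ULK1 (0.163) and OLFM4 (0.188). PIP was closest to OLFM4 (0.16), JDP2 (0.2) and PDZK1 (0.208), and OLFM4 to ULK1 (0.132), PIP (0.16) and PDZK1 (0.188). PIP came 8th for PDZK1. The arrays compared include those that chose the members, so closeness between members is in part set by that choice. DHRS2 was closest to the stress-induced chromatin protein NUPR1 (0.207), to CYP1A1 (0.222; above background on 4 of 8 arrays) and to the sialyltransferase ST6GALNAC1 (0.268). ADA2 stood apart, nearest to CACNA1B (0.211), SLC26A1 (0.247) and MYOD1 (0.3). In the alternative settings 0 to 3 of these 3 nearest genes stayed among the 3 nearest for OLFM4 and 1 to 3 for the other members.

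Genes related to the members by family, partner or cell type were read from lists drawn up by their known roles and tested in Go against enzastaurin. The lists were drawn up with earlier results of these data known, and the contrast is the one that chose the members. Their counts are therefore a description and not independent support. Of all 12773 genes 8.34% were called there, 5.03% higher and 3.31% lower, and the median difference was 0.03. Among partners of PDZK1 and other PDZ scaffolds of the apical membrane, none of 15 tested genes passed limma's adjusted test, and 3 had an unadjusted p under 0.05 (median -0.03). In alternative settings up to 2 were called higher or 2 lower. Among 28 short-chain dehydrogenases/reductases other than DHRS2, 1 rose, 1 fell and 26 did not pass (median -0.02). Over the settings 0 to 3 were called higher and 1 or 2 lower, with 2 higher without control 3 or Go 1 and 2 lower without control 3 or Go 2. The retinaldehyde reductase DHRS3 rose by 1.36 (SE 0.253, adjusted p = 0.0165), a call lost without enzastaurin 1 (0.0733) or enzastaurin 3 (0.0651; range 0.011 to 0.0733). DHRS7 fell by 0.73 (SE 0.077, adjusted p = 0.00188). Against control neither was called with Go, with DHRS3 at 0.55 (limma adjusted p = 0.12) and DHRS7 at -0.09 (0.366). With enzastaurin DHRS3 was called lower than control (-0.81, adjusted p = 0.0155) and DHRS7 higher (0.63, 0.000386).

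Among 24 tested secreted and mucin proteins of secretory epithelium, 1 rose and 23 did not pass, with a median difference of 0.07. The count of 1 reached 5 without control 3, 4 without Go 2, 2 without control 1 or Go 1 and 4 with arrays scaled to the 75th percentile (1 to 5 over all settings). The gene that rose was KRT23 (1.38, SE 0.134, adjusted p = 0.0016), a keratin of simple epithelia and not a secreted protein. Against control KRT23 was lower with Go by -0.72 and with enzastaurin by -2.11, the order seen for ADA2. Transcription factors of secretory epithelium gave 4 rises among 17 (23.5%), 0 falls and 13 that did not pass, with a median of 0.26. Every Go array lay above every enzastaurin array for 12 of the 17 and below for 0, against 28.7% and 19.4% of all genes. The rises were in SPDEF, a factor of goblet and prostate epithelium (0.82, SE 0.141, limma adjusted p = 0.0123), XBP1, which drives the secretory apparatus (0.54, SE 0.108, adjusted p = 0.0222), the epithelial ETS factor EHF (0.58, SE 0.143, adjusted p = 0.0424) and CREB3L4 (0.54, SE 0.093, adjusted p = 0.0133), which falls outside the rule for naming genes. Against control none of these 4 was called with Go: SPDEF 0.17 (limma adjusted p = 0.347), XBP1 -0.07 (0.645), EHF 0.40 (0.0611) and CREB3L4 -0.18 (0.168). With enzastaurin SPDEF (-0.65, adjusted p = 0.00302), XBP1 (-0.60, 0.00138) and CREB3L4 (-0.71, 0.000452) were called lower than control. EHF did not pass there (-0.18, 0.244).

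The count of 4 ran from 0 to 6 over the settings: it was 1 with arrays scaled to their median, 2 without control 2, 1 without enzastaurin 1, 0 without enzastaurin 2 and 1 without enzastaurin 3. SPDEF was not called without enzastaurin 1 (limma adjusted p = 0.0527) or enzastaurin 2 (0.061), nor CREB3L4 without enzastaurin 2 (0.0613) or 3 (0.055). XBP1 was lost without control 2 (0.0513), enzastaurin 1, 2 or 3 (0.0744, 0.0942 and 0.0705) or Go 1 (0.0717), and EHF without control 2 (0.0507), enzastaurin 1, 2 or 3 (0.134, 0.112 and 0.125) or Go 2 (0.123). The ranges over all settings were 0.000852 to 0.061 for SPDEF, 0.00732 to 0.0613 for CREB3L4, 0.0118 to 0.163 for XBP1 and 0.0199 to 0.134 for EHF.

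Of 7 tested olfactomedin-domain relatives of OLFM4, 0 rose, OLFML2A fell by 0.68 (SE 0.094, limma adjusted p = 0.00528) and 6 did not pass. Among 21 adenosine and purine salvage genes, 3 rose, 1 fell and 17 did not pass (median 0.04). The intracellular deaminase ADA rose by 0.52 (SE 0.117, adjusted p = 0.0326), the adenosine receptor ADORA2A by 0.47 (SE 0.085, adjusted p = 0.015) and the adenylate kinase AK1 by 0.48 (SE 0.115, adjusted p = 0.0389). Xanthine dehydrogenase, XDH, fell by 0.73 (SE 0.155, adjusted p = 0.0264). Against control, ADA had the order of ADA2, lower by -0.51 with Go (adjusted p = 0.0174) and by -1.02 with enzastaurin (adjusted p = 0.000329). ADORA2A (-0.17, limma adjusted p = 0.146) and AK1 (0.05, 0.737) were not called with Go against control. Both were called lower with enzastaurin (-0.64, 0.000472 and -0.42, 0.00815). XDH passed in neither comparison with control (-0.43, 0.0628 with Go and 0.31, 0.0883 with enzastaurin).

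These calls too were lost in some limma fits without 1 array. ADA was lost without control 2 (0.0551), enzastaurin 1, 2 or 3 (0.108, 0.0936 and 0.11) or Go 1 (0.103), and ADORA2A without enzastaurin 1 (0.0754) or 2 (0.0743). AK1 was lost without control 2 (0.0775), enzastaurin 1, 2 or 3 (0.121, 0.114 and 0.124) or Go 2 (0.101), and XDH without control 2 (0.0561) or enzastaurin 1, 2 or 3 (0.0985, 0.0719 and 0.0908). Over all settings adjusted p ran from 0.00981 to 0.11 for ADA, 0.0111 to 0.0754 for ADORA2A, 0.00651 to 0.128 for AK1 and 0.00503 to 0.0985 for XDH. The calls of DHRS7, KRT23 and OLFML2A held in all 21 settings.

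Against control, the share of a list called can be set beside 31.9% of all genes for Go and 55% for enzastaurin (18.1% higher, 36.9% lower), and several lists lay near or below it. Of the 28 short-chain dehydrogenases/reductases 32.1% were called with Go and 57.1% with enzastaurin, of the 17 transcription factors 17.6% and 52.9%, and of the 15 PDZK1 partners 26.7% and 66.7%. The corresponding shares were 50% and 62.5% of the 24 secreted and mucin proteins, 47.6% and 66.7% of the 21 adenosine and purine genes, and 57.1% and 42.9% of the 7 olfactomedin relatives. With Go, 8 dehydrogenases/reductases were called higher (2 to 12 over the settings; 4, 3 and 3 without control 1, control 2 or Go 2) and 1 lower (0 to 5; 5 without control 3, and 0 without any other array but Go 1). Of the secreted and mucin proteins 5 were called higher with Go (1 to 5; 1 without control 2 and 2 without Go 2) and 7 lower (0 to 10; 2 without control 2 or Go 2, 3 without control 1 and 4 without enzastaurin 1, 2 or 3). With enzastaurin 11 of them were called lower (1 to 12), as were 8 of the transcription factors (0 to 12) and 10 of the adenosine and purine genes (1 to 11; 6 without enzastaurin 2). The comparisons share the control arrays.

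**Figure D4:**
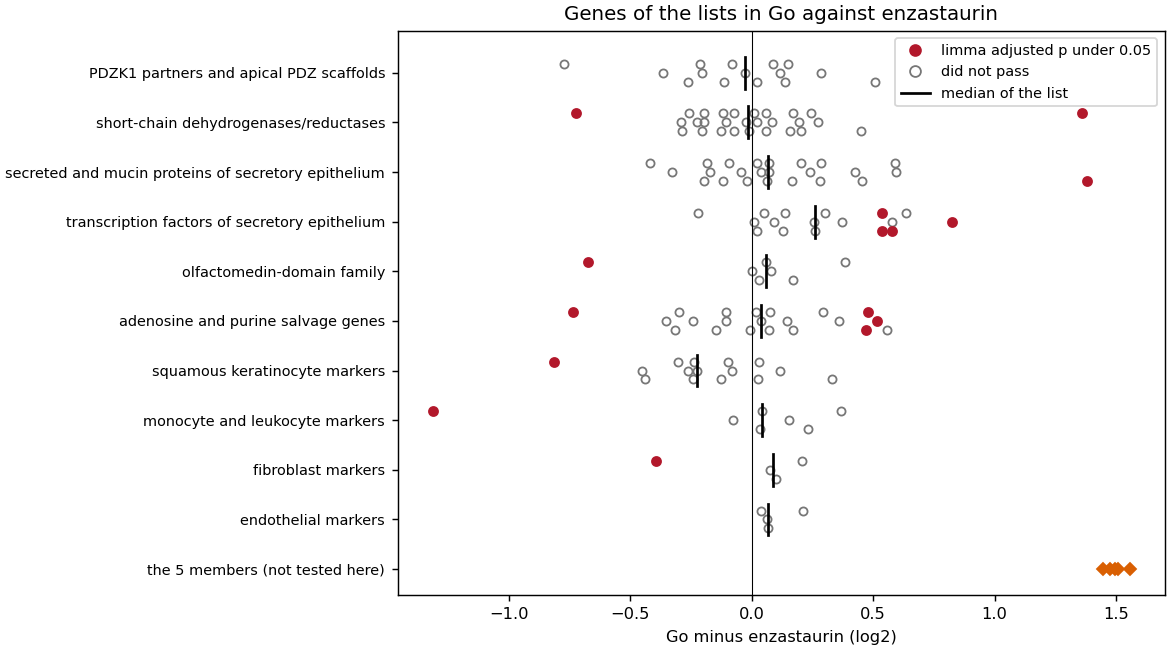
Go minus enzastaurin (log2) for each tested gene of the lists; filled points passed limma's adjusted p of 0.05, open points did not, and bars are list medians. The 5 members, chosen on this difference and not tested, lie at 1.45 to 1.56, near DHRS3 (1.36) and KRT23 (1.38).

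Markers of other cells were compared because ADA2 is known from monocytes. Of 14 monocyte and leukocyte markers on the array, 7 to 9 were above background in control, 5 to 7 in enzastaurin and 6 or 7 in Go. Their summed intensities were 1290 to 1582, 1237 to 1561 and 950 to 1333. PTPRC, AIF1, MS4A1 and LST1 were not above background on any array, with PTPRC at 0.5 to 5. CD14 (99 to 170), CD68 (86 to 155), CSF1R (90 to 519), TYROBP (34 to 65) and 1 or more probes of CD3E were above background on all 8, and FCER1G (346 to 882) on 6. All samples are of the CAL-27 line and the labels name no other cells, so these signals are not a measure of leukocytes. Whether any other cells added to the ADA2 values was not tested. Against control, 2 of 7 tested markers were called lower with Go, FCER1G (-0.85) and CD3E (-0.40), and 0 higher. With enzastaurin 3 were called lower, among them FCER1G (-1.22) and CD3E (-0.64), and 1 higher, CSF1R (1.15). Of all genes 20.2% were called lower with Go and 36.9% with enzastaurin. By group means FCER1G, CD3E, CD14, ITGAM and TYROBP stood in the order of ADA2, while CD68 and CSF1R were highest with enzastaurin. The share of all genes in that order by means was not counted, and nothing is read from it. In Go against enzastaurin 1 of the 7 was called, the macrophage receptor CSF1R, which fell by 1.31 (SE 0.095, limma adjusted p = 0.000562). Of 4 tested fibroblast markers LUM fell by 0.39 (SE 0.09, adjusted p = 0.0329), a call lost without control 2 (0.0619), enzastaurin 1, 2 or 3 (0.106, 0.0988 and 0.112) or Go 1 (0.102; range 0.0195 to 0.149). None of 4 endothelial markers passed limma's adjusted test, nor had an unadjusted p under 0.05 (0 of 4). Squamous keratinocyte markers had a median of -0.23, with 1 fall (SFN, -0.82, SE 0.08, adjusted p = 0.0016) among 15 and 14 that did not pass.

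The members lie on 5 different chromosomes. The nearest tested gene on either side of each member, 10 in all, differed between Go and enzastaurin by -0.12 (RNF115, beside PDZK1) to 0.27 (FAM72D, beside PDZK1). None of the 10 was called higher or lower by limma at an adjusted p of 0.05, against 8.34% of all genes, and 1, FAM72D, had an unadjusted p under 0.05. DHRS4-AS1, which neighbours DHRS2, differed by 0.01, and CECR2, which neighbours ADA2, by 0.11.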

How the data were processed

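CAL-27 RNA was hybridised to 8 single-colour arrays with Cy3, per the labels. The deposited scanner tables are GenePix tables, per the file headers, and hold raw intensity for spot and background, a score of signal to noise, and saturation as a percent of pixels. No member spot was saturated (0 percent in the deposited tables). A deposited table gives the authors' background-subtracted intensity per probe; how it was made is not given in the sources used here, and by its values it has a floor of 0.5 and no normalisation. No step of the authors beyond this is recorded.

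Probe names in the scanner tables stand in reverse order to the spots. Read as they stand, replicate spots of a probe had a log2 SD of 2.26 to 2.55 and rank correlations across probes with the authors' table were 0.00724 to 0.013. Reversed, as used here, these were 0.235 to 0.348 and 0.9904 to 0.9937. Mean foreground was corrected for median background by normexp with an offset of 50, and arrays were quantile normalised (limma 3.58.1, R 4.3.3). Probes with a signal-to-noise score over 3 on at least 2 arrays were kept, and the brightest probe stood for its gene. RefSeq (GRCh38.p14) named 23429 probes by accession, 2320 by symbol and 1038 by older symbol; 349 kept the name in the file and 13864 had none. The 12773 genes entered 1 limma fit of the 3 groups, with 5 residual and 3.71 prior degrees of freedom; p-values were adjusted by Benjamini-Hochberg and read at 0.05. A further fit ran on probes. On simulated data with 200 genes changed the fit recovered most known changes of 2 on the log2 scale, and no level was required for smaller ones. The simulated noise was independent between arrays with no slide effect, so it says nothing about slide. Arrays of 1 replicate number did not deviate together (correlations of -0.148 to 0.153 over 7 pairs, across genes), so no pairing was used.

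Members and lists were chosen with earlier results of these data known. Named genes are the members, the 3 genes most like each, and from each list up to 3 called higher and 3 called lower in Go against enzastaurin, by size, that were above background on every array of a group with groups not overlapping. Alternatives were other scalings, background corrections, filters and probe rules, the authors' table with a pseudocount of 50 or 10, slide or replicate number as a block, fits of 2 groups, and each array left out.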

Additional observations from a re-analysis of the deposited data

How the results depend on the processing

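Every difference of a member from control kept its direction in the 21 alternatives run. For DHRS2 with enzastaurin these ran from -0.33 to -0.02, and none used its dimmer probe alone, which differed by 0.06. That direction therefore stays unsettled. PDZK1 and DHRS2 against control with Go, and PDZK1 and ADA2 with enzastaurin, also kept their calls. PIP and OLFM4 with enzastaurin lost theirs only with the slide as a block. The count of genes called in Go against enzastaurin, 1065, was 527 with the replicate block and ranged from 244 to 1694 without 1 array, falling most without enzastaurin 1 (263), 2 (244), 3 (380) or control 2 (511) and rising without Go 2 (1694). For Go against control it was 4071, and 2352 with arrays scaled to the median, 841 with the slide block, 382 in a fit of the 2 groups alone and 840 to 5518 without 1 array, with 1991 without control 1, 1023 without control 2 and 840 without Go 2. For enzastaurin against control it was 7024, 546 with the slide block and 5325 to 7692 without 1 array. The replicate block changed 1 member call, PIP in Go against control (limma adjusted p = 0.0501); the numbers do not pair the arrays. Scaling to the median moved the median difference of all genes by 0.198 for enzastaurin against control. It took the share of calls that were higher from 60.3% to 31.9% for Go against enzastaurin, from 36.5% to 69.3% for Go against control and from 32.9% to 62.3% for enzastaurin against control. The causes were not tested. A fit without 1 Go array assumes that the lone array varies like the other groups. Each member probe had 1 spot an array, and PDZK1 in enzastaurin had signal-to-noise scores of only 4.67 to 7.43. Its difference from Go was 2.31 with the authors' values and a pseudocount of 10.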
